A study of Mus musculus with 48 samples.

Results

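The comparison described here sets kidneys of mice given vancomycin intravenously (iv) at 400 mg/kg per day against kidneys of mice given 200 mg/kg per day by the same route. It uses 12 of the 48 samples of the series, 6 mice at each dose, chosen by the dose and route in the sample titles. The 400 mg/kg group was mice 43 to 48 and the 200 mg/kg group was mice 25 to 30. All mice were female BALB/c, received 7 daily injections and were killed on day 8, and a piece of whole kidney was taken for RNA. Age is not given in the sources used here. Further iv groups received 50 mg/kg per day or saline, and a parallel set of 4 groups received the same doses or saline intraperitoneally (ip). Those groups enter below only as points of comparison. Every kidney has 1 Affymetrix array of its own, and levels are log2 of the deposited intensity unless another scale is named.

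Vancomycin is a glycopeptide antibiotic that is cleared by the kidney. Its known side effect there is injury of the tubule, mainly of the proximal tubule, whose cells take up drugs and filtered proteins from blood and urine. Proximal tubule cells reabsorb most of the filtered phosphate, glucose, amino acids and protein through transporters of the Slc families and the receptors megalin and cubilin. Injured tubule cells are known to lose such transporters, to switch on keratins and adhesion molecules, and to re-enter the cell cycle, while macrophages and fibroblasts gather between the tubules.

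Gene names rest on position in the deposited table. The values do not stand beside their own probe set identifiers, so names were given only in 3 stretches of the table where values followed the identifiers at a constant offset, which hold 24.4% of the 45101 probe sets. Pairs of variable probe sets of 1 gene correlated over the 48 arrays at a mean of 0.822 (67 pairs) under these offsets, against 0.319 (23 pairs) as listed and 0.334 and 0.433 with the names moved by 1 place. The stretches had been found from the likeness of same-gene probe sets, so this is not an independent check. The named results hold as far as this assignment does, and counts over all probe sets need no name. Array medians lay between 3.39 and 3.52 at 400 mg/kg and between 3.36 and 3.55 at 200 mg/kg, with mice 44 and 27 highest in their groups. Residuals of the 24 iv arrays fell into 3 sets that cut across the doses and are named in no label. Set 1 held mouse 44 at 400 mg/kg and mouse 27 at 200 mg/kg. Set 2 held mice 43, 45 and 46 at 400 mg/kg and mice 25 and 26 at 200 mg/kg. Set 3 held mice 47 and 48 at 400 mg/kg and mice 28, 29 and 30 at 200 mg/kg. The number of arrays limits the precision, and p-values measure the spread between these mice.

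Kidneys at 400 mg/kg differed from those at 200 mg/kg in injury, inflammation, proliferation and tubule transport genes. Over all 24930 probe sets tested, 2045 were higher and 1866 lower at 400 mg/kg in limma after Benjamini-Hochberg adjustment (15.7% called). Among the 5748 named genes, 641 rose (11.2%) and 486 fell (8.46%), 19.6% in all. Of these, 310 rose and 148 fell by more than 2-fold. The 2 groups of 6 mice did not overlap in 326 named genes (5.67%), and 310 of those were also called (5.39%). The median log2 fold change over all named genes was 0.02. With genes restricted to a mean level above 6, the share of rises among the called genes was 46.8%, against 56.9% without that restriction.

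Genes known to mark tubule injury rose in most of their list. Of 28 tested genes of the tubular injury list, 20 rose, 0 fell (0 at an unadjusted p under 0.05) and 8 did not pass the test, with a median log2 fold change of 1.71. Cd44, a cell surface receptor for hyaluronan that is switched on in damaged tubules, had levels of 8.21, 6.88, 6.96, 8.23, 8.85 and 8.77 in mice 43 to 48 at 400 mg/kg, against 5.62, 2.65, 4.78, 3.01, 4.44 and 4.50 in mice 25 to 30 at 200 mg/kg. Every mouse at 400 mg/kg lay above every mouse at 200 mg/kg, and mice 26 and 28 lay lowest. The difference was 14.1-fold (log2 fold change 3.82 ± 0.51 (SE), adjusted p = 0.0023). Cd44 averaged 2.80 ± 0.22 in iv saline and 2.80 ± 0.26 at iv 50 mg/kg (SD, n = 6 each), both under the median of the whole table (3.47), a level that is not told from background here.

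Krt20, a keratin of simple epithelia, had levels of 9.43, 8.43, 7.08, 10.04, 9.86 and 10.04 in mice 43 to 48 at 400 mg/kg, against 5.63, 4.01, 8.05, 3.03, 6.69 and 5.22 in mice 25 to 30 at 200 mg/kg. The groups touched at 1 point, since mouse 27 at 200 mg/kg lay above mouse 45 at 400 mg/kg. Krt20 rose 13.1-fold (log2 fold change 3.71 ± 0.77 (SE), adjusted p = 0.0091). Krt19, another keratin of simple epithelia, rose without overlap of the groups (log2 fold change 2.82 ± 0.52 (SE), adjusted p = 0.0063). Slc34a2, a phosphate transporter that normal proximal tubule uses little, rose as well (log2 fold change 2.88 ± 0.69 (SE), adjusted p = 0.016), although mouse 45 at 6.96 lay far below the other 400 mg/kg mice. In set 1, which compares mouse 44 with mouse 27 alone, the differences were 0.38 for Krt20, 0.05 for Krt19 and 0.83 for Slc34a2, and in sets 2 and 3 they were 2.74 or more for each of these genes.

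**Figure D1:**
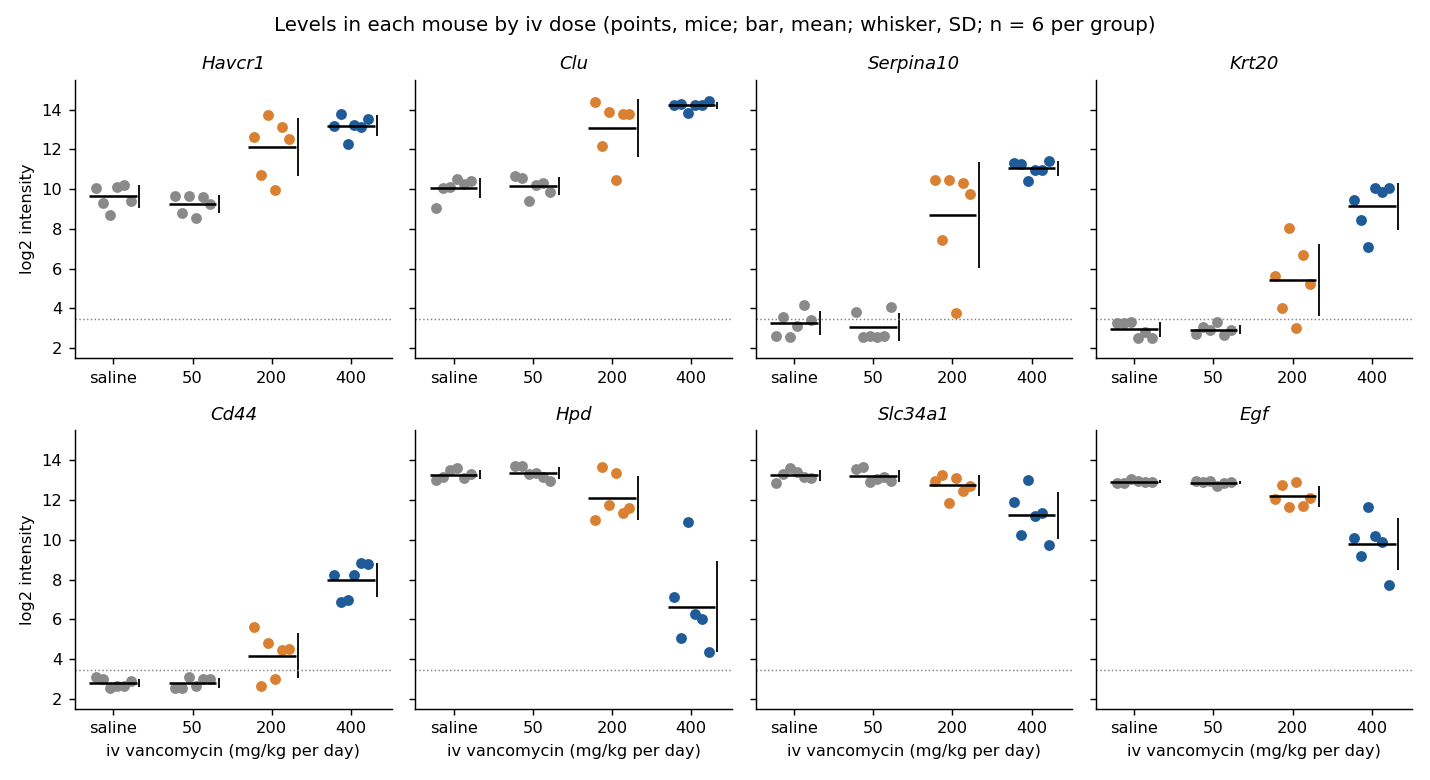
Log2 intensity (y axis) of 8 genes in each mouse by iv dose from saline to 400 mg/kg (x axis); points are mice, horizontal bars means, vertical lines SD, and the dotted line is the table median of 3.47. Cd44 did not overlap between 400 and 200 mg/kg, while Havcr1, Clu and Serpina10 were already high in most mice at 200 mg/kg, mice 26 and 28 being the low points.

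The best known injury markers were already high at 200 mg/kg in most mice and did not pass the test between the doses. Havcr1, which encodes the kidney injury molecule KIM-1, had levels of 13.20, 13.78, 12.27, 13.21, 13.13 and 13.54 at 400 mg/kg, against 12.63, 10.72, 13.74, 9.95, 13.13 and 12.53 at 200 mg/kg, in order of mouse number. Mice 26 and 28 stood low, and the other 4 mice at 200 mg/kg overlapped the range at 400 mg/kg. The difference was 1.07 ± 0.55 (SE, 95% interval -0.12 to 2.26, adjusted p = 0.21). Clu, a secreted chaperone shed by injured tubules, differed by 1.14 ± 0.53 (95% interval -0.00 to 2.28, adjusted p = 0.17). Its 400 mg/kg mice lay in a narrow band of 13.84 to 14.43 with a median of 14.24, against 10.47 to 14.37 with a median of 13.76 at 200 mg/kg.

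Serpina10, a secreted protease inhibitor, had levels of 11.31, 11.25, 10.39, 10.94, 10.94 and 11.42 at 400 mg/kg and 10.45, 7.46, 10.46, 3.75, 10.32 and 9.77 at 200 mg/kg. Mouse 28 at 200 mg/kg was near the iv saline mean of 3.24 ± 0.60 (SD, n = 6), and 4 of the 6 mice at 200 mg/kg were above 9. The difference of 2.34 ± 0.96 had an adjusted p of 0.12 in limma. An exact permutation test of the means over all 924 splits of the 12 mice gave a two-sided p of 0.0065, against 0.039 for Clu and 0.13 for Havcr1. These are 3 of the 131 genes for which that test was run, without adjustment. Lrg1, a secreted glycoprotein of the acute phase, just passed (log2 fold change 2.45 ± 0.77 (SE), adjusted p = 0.046), with levels of 7.73 to 10.84 with a median of 9.72 at 400 mg/kg and 3.95 to 9.27 with a median of 7.27 at 200 mg/kg, and it lost the call when any 1 mouse other than 27, 29 and 45 was left out (adjusted p up to 0.094). The injury genes Lcn2, Spp1, Timp1, Ccl2, Cxcl1 and Hmox1 lie outside the named stretches and were not analysed here.

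Transporters of the proximal tubule moved the other way. Of 27 tested members, 1 rose, 18 fell and 8 did not pass the test, with a median log2 fold change of -0.90. In whole kidney, fewer proximal tubule cells and less of an RNA per cell cannot be told apart. Lrp2, which encodes the endocytic receptor megalin, had levels of 10.90, 10.19, 12.01, 10.54, 11.11 and 10.19 at 400 mg/kg, against 12.29, 12.72, 11.76, 12.93, 12.42 and 12.48 at 200 mg/kg. Mouse 45 at 400 mg/kg lay above mouse 27 at 200 mg/kg and the other 5 mice at 400 mg/kg lay below every 200 mg/kg mouse. Lrp2 fell 3.06-fold (log2 fold change -1.61 ± 0.29 (SE), adjusted p = 0.0058).

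The steepest falls of the list were in organic anion transporters and a brush border protease. Slc22a29, a member of the organic anion transporter family, ranged over 5.04 to 9.22 with a median of 6.77 at 400 mg/kg, against 9.06 to 10.54 with a median of 9.40 at 200 mg/kg (log2 fold change -2.75 ± 0.55 (SE), adjusted p = 0.0081). Slc22a22, the prostaglandin-specific organic anion transporter, fell by 2.55 (adjusted p = 0.013) and Mep1b, the beta subunit of the brush border protease meprin, fell by 2.63 (adjusted p = 0.03). Mep1b had an SD of 1.99 at 400 mg/kg and 0.59 at 200 mg/kg, and it lost the call when any 1 of mice 26, 28, 30, 44, 46 and 48 was left out (adjusted p up to 0.072). Slc22a8, the basolateral organic anion transporter Oat3, ranged over 6.16 to 10.64 with a median of 8.52 at 400 mg/kg and 10.13 to 11.69 with a median of 10.74 at 200 mg/kg (log2 fold change -2.34 ± 0.55 (SE), adjusted p = 0.015). The related Slc22a6, Oat1, fell by 0.85 (adjusted p = 0.02), and Slc22a12, the urate transporter Urat1, fell by 0.62 without overlap of the groups (adjusted p = 0.015).

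Slc34a1, the main phosphate transporter of the brush border, had levels of 11.92, 10.24, 13.00, 11.19, 11.32 and 9.72 at 400 mg/kg, against 12.98, 13.28, 11.85, 13.10, 12.46 and 12.73 at 200 mg/kg. Mouse 45 at 400 mg/kg lay within the range of the lower dose, and mouse 27 at 200 mg/kg lay below mice 43 and 45. The fall of 2.83-fold passed narrowly (log2 fold change -1.50 ± 0.46 (SE), adjusted p = 0.042), and it lost the call when any 1 mouse other than 27 and 45 was left out (adjusted p up to 0.094). Slc34a1 averaged 13.23 ± 0.27 in iv saline and 13.21 ± 0.32 at iv 50 mg/kg (SD, n = 6 each). Slc16a4, a monocarboxylate transporter outside the list, also fell (log2 fold change -1.77 ± 0.55 (SE), adjusted p = 0.046), and it lost the call when any 1 mouse other than 27 and 45 was left out (adjusted p up to 0.099).

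Most of the metabolic enzymes of the proximal tubule fell, among them enzymes of amino acid and creatine metabolism. Of 24 tested members of the proximal tubule metabolism list, 2 rose, 15 fell and 7 did not pass the test, with a median of -1.13. The rises, named after their values were seen, were Cyp27b1, which makes active vitamin D, by 1.59 (adjusted p = 0.044) and Cyp7b1, an oxysterol hydroxylase, by 1.57 (adjusted p = 0.0083). Hpd, an enzyme of tyrosine breakdown, showed the largest fall of any named gene. Its levels were 7.13, 5.08, 10.89, 6.28, 6.03 and 4.38 at 400 mg/kg, against 10.99, 13.64, 11.75, 13.34, 11.36 and 11.59 at 200 mg/kg. The groups did not overlap, though mouse 45 at 10.89 lay just under mouse 25 at 10.99, while the other 5 mice at 400 mg/kg were at 7.13 or lower. Hpd was 44.7-fold lower at 400 mg/kg (log2 fold change -5.48 ± 0.90 (SE), adjusted p = 0.0043), and the difference was -6.67, -4.22 and -6.89 within array sets 1, 2 and 3.

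Hsd3b2, a hydroxysteroid dehydrogenase, fell by 2.94 (adjusted p = 0.011), Aspdh, an aspartate dehydrogenase, by 2.38 (adjusted p = 0.012), and Dpys, an enzyme of pyrimidine breakdown, by 2.31 without overlap (adjusted p = 0.0037). The mean of Dpys at 400 mg/kg, 3.06 ± 0.58 (SD, n = 6), was below the table median, so the size of its fall is approximate. Gatm, the first enzyme of creatine synthesis, ranged over 6.77 to 10.47 with a median of 8.00 at 400 mg/kg and 8.71 to 12.05 with a median of 10.36 at 200 mg/kg, with mouse 27 the low point at 200 mg/kg. It fell by 2.14 (adjusted p = 0.044), and it lost the call when any 1 mouse other than 27, 29 and 45 was left out (adjusted p up to 0.097).

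**Figure D2:**
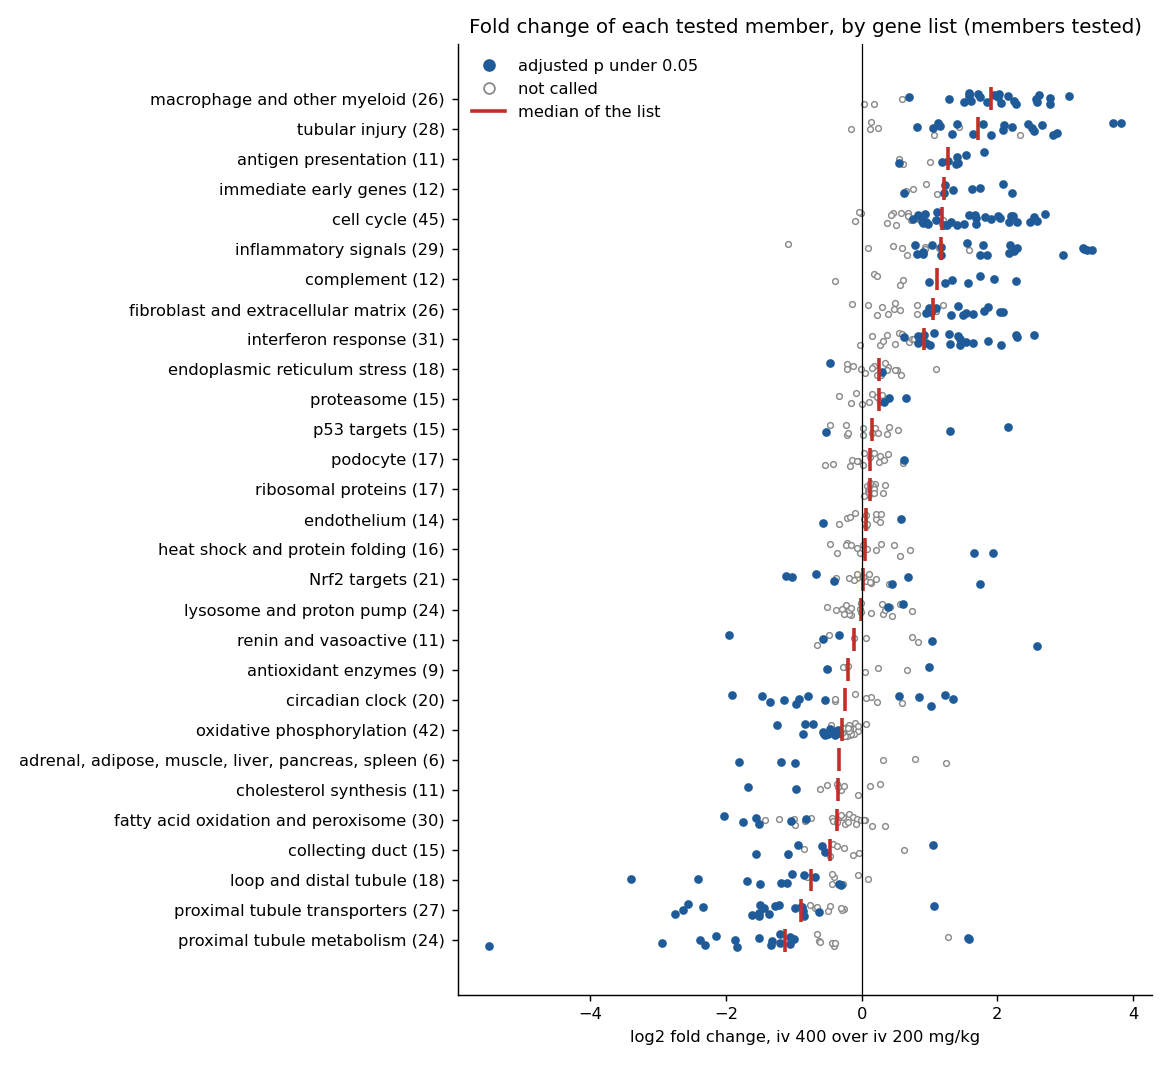
Log2 fold change of 400 over 200 mg/kg iv (x axis) for each tested member of the gene lists with at least 5 tested members (y axis, number tested in brackets); filled points passed an adjusted p of 0.05, open points did not, and red bars are list medians. Myeloid and tubular injury lists had the highest medians (1.90 and 1.71), and the proximal tubule metabolism and transporter lists had the lowest (-1.13 and -0.90).

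Genes of later tubule segments were lower as well. Of 18 tested genes of the loop and distal tubule, 0 rose (0 at an unadjusted p under 0.05), 11 fell and 7 did not pass the test (median -0.74). Egf, the growth factor precursor made by the thick ascending limb and distal convoluted tubule, had levels of 10.08, 9.17, 11.67, 10.18, 9.90 and 7.70 at 400 mg/kg, against 12.05, 12.73, 11.65, 12.89, 11.71 and 12.09 at 200 mg/kg. Mouse 45 at 400 mg/kg lay beside mice 27 and 29 at 200 mg/kg, and mouse 48 was lowest. Egf fell 5.3-fold (log2 fold change -2.41 ± 0.50 (SE), adjusted p = 0.0092). Pvalb, a calcium-binding protein of the early distal convoluted tubule, fell 10.5-fold (log2 fold change -3.40 ± 0.68 (SE), adjusted p = 0.0083), with levels of 3.19 to 8.23 with a median of 5.19 at 400 mg/kg and 8.11 to 9.85 with a median of 8.55 at 200 mg/kg. Kl, which encodes the FGF23 co-receptor klotho, fell by 1.69 (adjusted p = 0.013). Umod, which encodes uromodulin and marks the thick ascending limb, was high in all 12 mice, at 12.73 to 13.29 with a median of 12.97 at 400 mg/kg and 13.14 to 13.40 with a median of 13.33 at 200 mg/kg. It differed by -0.31 ± 0.09 (SE, adjusted p = 0.043), and it lost the call when any 1 mouse other than 27, 45 and 46 was left out (adjusted p up to 0.094).

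The collecting duct list held calls in both directions. Of 15 tested members, 1 rose, 5 fell and 9 did not pass the test (median -0.47). Aqp2, the vasopressin-regulated water channel of principal cells, ranged over 9.33 to 11.38 with a median of 10.91 at 400 mg/kg and 10.22 to 11.71 with a median of 10.70 at 200 mg/kg, a difference of -0.25 ± 0.35 (SE, 95% interval -1.01 to 0.51, adjusted p = 0.69). Hmx2, a homeobox transcription factor, fell by 1.56 (adjusted p = 0.0074) and its mean at 400 mg/kg was under the table median. Rhcg, an ammonia transporter, fell by 1.08 (adjusted p = 0.045), and it lost the call when any 1 mouse other than 27 and 45 was left out (adjusted p up to 0.099). St6gal1, a sialyltransferase, rose by 1.06 (adjusted p = 0.028), and it lost the call when any 1 of mice 26, 28, 43, 47 and 48 was left out (adjusted p up to 0.062).

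Genes of the glomerulus and of blood vessels gave shares of calls under the background. Of 17 podocyte genes, 1 rose, 0 fell (2 at an unadjusted p under 0.05) and 16 did not pass the test (median 0.13). Nphs1, which encodes nephrin of the slit diaphragm, differed by 0.13 ± 0.17 (SE, 95% interval -0.24 to 0.50, adjusted p = 0.67), and the 1 call was Tcf21, a transcription factor of podocytes and stroma (log2 fold change 0.62 ± 0.19 (SE), adjusted p = 0.041), and it lost the call when any 1 mouse other than 25, 44 and 45 was left out (adjusted p up to 0.091). Of 14 endothelial genes, 1 rose, 1 fell and 12 did not pass the test (median 0.06). The calls were Ramp2, a receptor activity-modifying protein (log2 fold change 0.58 ± 0.13 (SE), adjusted p = 0.012), and Tek, the angiopoietin receptor Tie2 (log2 fold change -0.57 ± 0.13 (SE), adjusted p = 0.014), both without overlap of the groups. The plasma membrane genes Emcn and Plvap of endothelium differed by 0.04 ± 0.20 and 0.06 ± 0.14 (SE).

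Genes of macrophages and other myeloid cells rose almost throughout their list. Of 26 tested members, 22 rose, 0 fell (0 at an unadjusted p under 0.05) and 4 did not pass the test. The list median of 1.90 was higher than that of any other list with at least 5 tested members. For 3 of the 26 the mean at 200 mg/kg was under the table median. Fcgr1, a high-affinity Fc receptor for IgG, had levels of 8.39, 6.10, 6.73, 7.57, 8.82 and 9.02 at 400 mg/kg, against 5.63, 3.58, 5.63, 2.96, 5.25 and 5.21 at 200 mg/kg. The groups did not overlap, mouse 44 being lowest at 400 mg/kg, and Fcgr1 rose 8.33-fold (log2 fold change 3.06 ± 0.59 (SE), adjusted p = 0.0072). Cd14, the lipopolysaccharide co-receptor, rose 6.81-fold (log2 fold change 2.77 ± 0.66 (SE), adjusted p = 0.016) with levels of 9.74 to 11.82 with a median of 11.46 at 400 mg/kg and 5.72 to 10.69 with a median of 8.74 at 200 mg/kg. Clec4n, the C-type lectin dectin-2, rose by 2.77 without overlap (adjusted p = 0.0062).

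The complement list gave 7 rises and 0 falls among 12 tested genes (1 fall at an unadjusted p under 0.05, median 1.11), and the leading members are made by macrophages. C1qa, a chain of complement C1q, had levels of 11.54, 9.58, 9.84, 10.39, 11.31 and 11.33 at 400 mg/kg, against 9.06, 7.65, 9.10, 7.02, 8.78 and 8.75 at 200 mg/kg. All mice at 400 mg/kg lay above those at 200 mg/kg (log2 fold change 2.27 ± 0.43 (SE), adjusted p = 0.0068). C1qb, its partner chain, rose by 1.95 and Itgam, the integrin CD11b, by 1.75, both without overlap (adjusted p = 0.007 and 0.019). C1qa, C1qb and Itgam also belong to the myeloid list above, so these calls are already counted among its rises. Itgam was at 2.48 ± 0.02 (SD, n = 6) at 200 mg/kg, under the table median, and mice 44 and 45 stayed there at 400 mg/kg with 2.55 and 2.82, while the other 4 mice at 400 mg/kg lay between 4.70 and 5.46.

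Other blood cells were thinly covered. Of the neutrophil list only 2 members were tested, of which Fpr2, a formyl peptide receptor, rose (log2 fold change 2.06 ± 0.51 (SE), adjusted p = 0.019) and Csf3r, the G-CSF receptor, differed by 0.43 ± 0.16 (adjusted p = 0.08). Both had means under the table median at 200 mg/kg, so these sizes are approximate, and Csf3r passed when mouse 44 or 46 was left out (adjusted p down to 0.04). Of 2 T and NK cell genes tested, the chemokine Ccl5 differed by 1.58 ± 0.51 (adjusted p = 0.053) and Cd8a by -0.07 ± 0.11 (adjusted p = 0.76), and Ccl5 passed when mouse 25 was left out (adjusted p down to 0.036). The B and plasma cell list (3 tested) held 0 calls by limma and 1 gene at an unadjusted p under 0.05, the plasma cell factor Xbp1 at 0.52 ± 0.22 (adjusted p = 0.13), while Ighm, the constant region of IgM, differed by 0.65 ± 0.37 (SE, adjusted p = 0.27). Ighm passed when mouse 25 was left out (adjusted p down to 0.022), and Xbp1 passed when mouse 27 was left out (adjusted p down to 0.026). The red cell list (4 tested) held 0 calls and 2 genes at an unadjusted p under 0.05, in opposite directions. Slc4a1, an anion exchanger that intercalated cells also make, differed by -1.09 ± 0.40 (SE), and Epb42, a protein of the red cell membrane skeleton named after its value was seen, by 0.63 (adjusted p = 0.08 and 0.13). Slc4a1 passed when mouse 27 or 45 was left out (adjusted p down to 0.023). Of 6 tested genes that mark liver, pancreas, fat and other organs, the albumin, elastase and apolipoprotein genes Alb, Cela1 and Apoa2 fell by 1.80, 1.18 and 0.99 (adjusted p = 0.015, 0.0094 and 0.0092), and the mean of Apoa2 at 400 mg/kg was under the table median. The other 3, Adipoq, Serpina1b and Fabp4, did not pass and differed by 1.25, 0.78 and 0.31 (adjusted p = 0.49, 0.11 and 0.14). The part of changing cell numbers in any of the list differences was not tested.

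Chemokines, cytokines and their signalling genes rose with the myeloid genes. Of 29 tested members of the inflammatory list, 20 rose, 0 fell (1 at an unadjusted p under 0.05) and 9 did not pass the test (median 1.16). The groups did not overlap in 11 of the 29, against 5.67% of all named genes. For 8 of the 29 the mean at 200 mg/kg was under the table median, where a fall can hardly be seen. Ccl9 and Ccl6, chemokines of the CC family, rose 9.98-fold and 9.66-fold (adjusted p = 0.0062 and 0.004). Ccl6 had levels of 7.50 to 10.42 with a median of 9.67 at 400 mg/kg and 5.10 to 7.06 with a median of 6.04 at 200 mg/kg, with no overlap. Ccl20, which attracts cells through the receptor CCR6, rose by 3.26 (adjusted p = 0.0031), and its mean at 200 mg/kg, 2.86 ± 0.83 (SD, n = 6), was under the table median.

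Il1f6, the gene of the epithelial cytokine interleukin 36 alpha, had levels of 8.95, 7.73, 6.25, 8.43, 9.16 and 9.27 at 400 mg/kg, against 6.05, 3.09, 7.65, 2.39, 5.14 and 5.09 at 200 mg/kg. Mouse 27 lay above mouse 45, as it did for Krt20, and the other mice separated by dose. Il1f6 rose 10.5-fold (log2 fold change 3.40 ± 0.80 (SE), adjusted p = 0.015), with a difference of 0.08 between mice 44 and 27 in set 1 and of 3.30 and 5.01 in sets 2 and 3. Socs3, a feedback inhibitor of cytokine signalling through JAK and STAT proteins, ranged over 6.67 to 8.18 with a median of 7.82 at 400 mg/kg and 2.58 to 6.06 with a median of 5.20 at 200 mg/kg (log2 fold change 2.96 ± 0.53 (SE), adjusted p = 0.0057).

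Interferon-stimulated genes rose too. Of 31 tested members of the interferon list, 20 rose, 0 fell (0 at an unadjusted p under 0.05) and 11 did not pass the test (median 0.92). Irf7, a transcription factor that amplifies interferon production, had levels of 7.89, 6.39, 6.10, 7.13, 7.56 and 8.75 at 400 mg/kg, against 5.47, 4.60, 4.41, 4.09, 5.44 and 4.56 at 200 mg/kg. The groups did not overlap, and mouse 48 was highest (log2 fold change 2.55 ± 0.41 (SE), adjusted p = 0.0041). Oas1a, an oligoadenylate synthetase that senses double-stranded RNA, rose by 2.28 (adjusted p = 0.007) and Cxcl10, a chemokine induced by interferons, by 2.29 (adjusted p = 0.014), both without overlap and with mouse 48 highest in each.

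Promoters of the interferon list often held the letters GAAANNGAA on either strand, the core of the element that interferon regulatory factors and the STAT complex of interferon signalling bind. In RefSeq windows from 250 bases before to 50 bases after a gene's start (build GRCm38.p6), 16 of the 27 members with a window held it (59.3%), among them 9 of the 16 called members with a window (56.3%), against 9.76% of all 27025 genes. The windows of 2 called members are shown because they carry this motif, with the match in capitals. The Cxcl10 window is chr5:92348840-92349139, minus strand, and the Oas1a window is chr5:120907476-120907775, minus strand, where overlapping matches run together. A match is a description of the letters and not a measured binding site.
Cxcl10 promoter: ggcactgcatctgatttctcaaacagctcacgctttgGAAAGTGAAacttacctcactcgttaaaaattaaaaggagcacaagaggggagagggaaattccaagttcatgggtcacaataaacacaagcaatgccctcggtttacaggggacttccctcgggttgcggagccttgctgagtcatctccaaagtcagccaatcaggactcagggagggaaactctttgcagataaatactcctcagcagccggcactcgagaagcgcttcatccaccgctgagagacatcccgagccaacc
Oas1a promoter: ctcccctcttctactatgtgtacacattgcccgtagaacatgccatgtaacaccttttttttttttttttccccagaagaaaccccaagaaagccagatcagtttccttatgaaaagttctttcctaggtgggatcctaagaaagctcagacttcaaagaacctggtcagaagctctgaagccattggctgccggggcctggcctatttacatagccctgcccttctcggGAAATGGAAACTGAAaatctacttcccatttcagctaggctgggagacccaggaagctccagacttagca

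Genes of antigen presentation rose in 8 of 11 tested members, with 0 falls (0 at an unadjusted p under 0.05) and a median of 1.28. Psmb8, a subunit of the immunoproteasome, rose without overlap (log2 fold change 1.80 ± 0.35 (SE), adjusted p = 0.0072). H2-Ab1 and H2-DMa, which present and load peptides in the class II pathway, rose by 1.53 and 1.42 (adjusted p = 0.035 and 0.041). H2-Ab1 lost the call when any 1 mouse other than 25, 27 and 44 was left out (adjusted p up to 0.078), and H2-DMa lost the call when any 1 mouse other than 25, 27, 29 and 44 was left out (adjusted p up to 0.085). In mouse 44 H2-Ab1 stood at 9.15, while the other 400 mg/kg mice had 10.53 or more.

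Cell cycle genes rose in 30 of 45 tested members, with 0 falls (0 at an unadjusted p under 0.05), 15 not passing and a median of 1.18. For 17 of the 45 the mean at 200 mg/kg was under the table median, and for 1 it was under at both doses. Such genes can hardly fall further, and the filter keeps those that are higher in other arrays. The counts of rises and falls are thus partly set in advance, and the size of rises from that level is approximate. Mki67, the proliferation antigen Ki-67, had levels of 8.74, 8.22, 7.60, 8.67, 8.62 and 8.99 at 400 mg/kg, against 8.34, 4.55, 5.98, 4.12, 5.83 and 7.16 at 200 mg/kg. At 400 mg/kg all mice lay in a narrow range, while at 200 mg/kg they were spread and mouse 25 lay above mouse 45 and mouse 44 (log2 fold change 2.48 ± 0.59 (SE), adjusted p = 0.016). Birc5, the chromosomal passenger protein survivin, rose by 2.71 (adjusted p = 0.012) and Rrm2, a subunit of ribonucleotide reductase, by 2.58 without overlap (adjusted p = 0.012). Aurka, a kinase of the mitotic spindle, had levels of 5.18 to 6.00 with a median of 5.68 at 400 mg/kg and 2.10 to 5.34 with a median of 2.61 at 200 mg/kg (log2 fold change 2.54 ± 0.46 (SE), adjusted p = 0.0062).

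Among the 38 cell cycle members with a promoter window, 18 held TTTGAA on either strand (47.4%), the letters of the cell cycle homology region that the DREAM complex binds, and 12 of the 27 called members with a window held it (44.4%), against 20.2% of all genes. GCGGGAA, a form of the E2F site, was in 7 of the 38 (18.4%), against 5.29% of all genes. The windows of Mki67, chr7:135716330-135716629, minus strand, and Aurka, chr2:172370521-172370820, minus strand, are shown as the 2 genes described above that hold TTTGAA, in capitals.
Mki67 promoter: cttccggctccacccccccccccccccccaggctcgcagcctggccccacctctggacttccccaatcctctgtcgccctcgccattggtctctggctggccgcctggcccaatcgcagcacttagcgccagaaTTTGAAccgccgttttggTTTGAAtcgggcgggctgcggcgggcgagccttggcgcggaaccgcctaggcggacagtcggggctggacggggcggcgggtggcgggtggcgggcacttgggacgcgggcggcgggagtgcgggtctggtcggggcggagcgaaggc
Aurka promoter: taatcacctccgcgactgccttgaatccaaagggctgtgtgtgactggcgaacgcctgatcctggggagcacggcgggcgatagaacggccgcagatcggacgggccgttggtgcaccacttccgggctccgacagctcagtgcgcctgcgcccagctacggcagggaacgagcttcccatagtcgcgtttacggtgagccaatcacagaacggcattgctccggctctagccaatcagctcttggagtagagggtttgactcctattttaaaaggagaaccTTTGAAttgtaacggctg

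For the transporters of the proximal tubule the letters GTTAATNAT, a form of the site of the hepatocyte nuclear factor HNF1, were in 1 of 23 members with a window, Slc22a29, against 0.940% of all genes. Its window is chr19:8218851-8219150, minus strand, and it is shown as the gene with the largest fall of that list, with the match in capitals.
Slc22a29 promoter: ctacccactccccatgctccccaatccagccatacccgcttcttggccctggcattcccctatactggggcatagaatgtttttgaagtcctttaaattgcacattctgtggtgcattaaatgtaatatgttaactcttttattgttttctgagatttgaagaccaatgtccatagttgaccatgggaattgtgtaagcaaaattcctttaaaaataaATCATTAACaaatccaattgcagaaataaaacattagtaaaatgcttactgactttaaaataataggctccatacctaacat

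Among p53 targets, 2 of 15 rose and 1 fell (median 0.15), and 12 did not pass. The share called was near the 19.6% called over all named genes. Cdkn1a, the cell cycle inhibitor p21, had levels of 8.34, 8.88, 8.54, 8.41, 9.52 and 9.72 at 400 mg/kg, against 6.59, 5.97, 8.69, 5.61, 6.86 and 6.77 at 200 mg/kg, mouse 27 being the only one at 200 mg/kg within the range of the higher dose (log2 fold change 2.16 ± 0.44 (SE), adjusted p = 0.0086). Its 2 kept probe sets gave 0.86 to 2.16. Pmaip1, which encodes the pro-apoptotic protein Noxa, rose by 1.29 without overlap (adjusted p = 0.0034). Xpc, a DNA damage sensor, fell by 0.52 (adjusted p = 0.033), and it lost the call when any 1 mouse other than 27, 44, 47 and 48 was left out (adjusted p up to 0.078).

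Collagen and matrix genes rose in 13 of 26 tested members, with 0 falls (0 at an unadjusted p under 0.05) and a median of 1.06. For 4 of the 26 the mean at 200 mg/kg was under the table median. Col1a1, the main chain of type I collagen, had levels of 9.53, 9.49, 8.70, 9.38, 9.74 and 10.50 at 400 mg/kg, against 9.15, 6.16, 7.82, 4.83, 8.44 and 8.43 at 200 mg/kg. At 200 mg/kg 4 of 6 mice were at 7.82 or higher and mice 26 and 28 were lowest, and the difference was 2.09 ± 0.62 (SE, adjusted p = 0.038). Col1a1 lost the call when any 1 mouse other than 25, 27, 29, 30 and 45 was left out (adjusted p up to 0.084). Mfap5, a protein of elastic microfibrils, and Vcan, the proteoglycan versican, rose by 2.04 and 1.87 (adjusted p = 0.0019 and 0.008), and both had means under the table median at 200 mg/kg.

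Immediate early genes rose in 8 of 12 tested members with 0 falls (0 at an unadjusted p under 0.05, median 1.22). Myc, the growth-promoting transcription factor, had levels of 7.33, 6.04, 7.45, 7.52, 6.42 and 6.96 at 400 mg/kg, against 5.89, 5.19, 4.65, 3.48, 4.81 and 4.48 at 200 mg/kg, with no overlap (log2 fold change 2.21 ± 0.37 (SE), adjusted p = 0.0043). Klf6, a zinc finger factor induced by injury, rose by 2.08 (adjusted p = 0.015). Maff, a small Maf protein, rose by 1.74 without overlap (adjusted p = 0.0029), although mouse 44 at 3.97 was close to the 200 mg/kg mice. The list median of 200 mg/kg against saline was -0.94, with 5 members lower at 200 mg/kg. The list mean was 7.66 ± 0.67 at 400 mg/kg, 6.36 ± 0.56 at 200 mg/kg and 7.63 ± 0.16 in iv saline (SD, n = 6 each). At 400 mg/kg the list mean thus lay near saline. Fos, Egr1, Nr4a1 and Csrnp1 did not pass between the doses (log2 fold change 1.11, 0.95, 0.65 and 0.76, adjusted p = 0.48, 0.34, 0.53 and 0.10).

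Stress and protection genes were called in both directions. Of 21 tested Nrf2 targets, 3 rose, 4 fell and 14 did not pass the test (median 0.01). The share called in this list (7 of 21) was above the 19.6% called over all named genes, that of the antioxidant list (2 of 9) was near it, and those of the heat shock list (2 of 16) and the endoplasmic reticulum stress list (2 of 18) were below it. Gclc, the catalytic subunit of glutathione synthesis, differed by 0.41 ± 0.26 (SE, adjusted p = 0.33), and the glutathione transferases Gsta3 and Gsta2, which proximal tubules make, fell by 1.11 and 1.02 (adjusted p = 0.031 and 0.019). Of 9 antioxidant enzymes, 1 rose, 1 fell and 7 did not pass the test: Gpx7, a peroxidase of the endoplasmic reticulum, rose by 0.99 and Sod2, the mitochondrial superoxide dismutase, fell by 0.50 (adjusted p = 0.031 and 0.031). Gsta3 lost the call when any 1 mouse other than 25, 27, 30, 45 and 46 was left out (adjusted p up to 0.076), Gpx7 lost the call when any 1 of mice 26, 28, 43, 44, 47 and 48 was left out (adjusted p up to 0.076), and Sod2 lost the call when any 1 mouse other than 25, 27, 29, 43 and 45 was left out (adjusted p up to 0.076). Mt1, a metallothionein, differed by 0.67 ± 0.22 (SE, adjusted p = 0.054), and Mt1 passed when mouse 27 or 45 was left out (adjusted p down to 0.021). It also passed with array set as a block (adjusted p = 0.0066). This adds no support, because the sets were drawn from residuals of these same arrays. Among 16 heat shock genes the small chaperones Hspb1 and Hspb8 rose by 1.93 and 1.66 (adjusted p = 0.012 and 0.0077) and the other 14 did not pass. Of 18 genes of endoplasmic reticulum stress, Calr rose by 0.29 and Dnajc3 fell by 0.46 (adjusted p = 0.044 and 0.023). Calr is a chaperone of that compartment, and it lost the call when any 1 mouse other than 25 and 29 was left out (adjusted p up to 0.1).

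Mitochondrial genes were lower in part, and the lists of lipid genes were called near the background share. Of 42 tested genes of oxidative phosphorylation, 0 rose (0 at an unadjusted p under 0.05), 15 fell and 27 did not pass the test (median -0.29), and 41 of the 42 log2 fold changes were below 0. Sdha, the flavoprotein subunit of succinate dehydrogenase, ranged over 10.78 to 11.37 with a median of 11.01 at 400 mg/kg and 11.43 to 12.20 with a median of 11.81 at 200 mg/kg, with no overlap (log2 fold change -0.83 ± 0.14 (SE), adjusted p = 0.0046). Cox7a1, a subunit of cytochrome oxidase, fell by 1.24 (adjusted p = 0.021), and it lost the call when mouse 28 was left out (adjusted p up to 0.051). Of 30 genes of fatty acid oxidation and peroxisomes, 6 fell and 0 rose (0 at an unadjusted p under 0.05, median -0.37), led by Bdh1, a ketone body enzyme (log2 fold change -2.02 ± 0.42 (SE), adjusted p = 0.0091), and Pxmp2, a peroxisomal membrane channel (log2 fold change -1.75 ± 0.41 (SE), adjusted p = 0.015). Of 11 genes of cholesterol synthesis, Cyp51 and Lss fell by 1.67 and 0.96 (adjusted p = 0.01 and 0.019), and the 2 kept probe sets of Cyp51 gave -1.67 to -0.16. The shares called in these 2 lipid lists (6 of 30 and 2 of 11) were near the 19.6% called over all named genes. All of these calls were falls, and 8.46% of all named genes fell.

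Lysosomal, ribosomal and proteasome genes gave calls near or under the background. Of 24 lysosomal genes, Ctsz, a cathepsin, and Npc2, a cholesterol carrier, rose by 0.61 and 0.39 (adjusted p = 0.025 and 0.025) and 22 did not pass (median -0.01). Ctsz lost the call when any 1 of mice 28, 29, 30, 43 and 46 was left out (adjusted p up to 0.06), and Npc2 lost the call when any 1 of mice 28, 29, 43, 47 and 48 was left out (adjusted p up to 0.059). Of 17 ribosomal protein genes 0 were called by limma and 4 were at an unadjusted p under 0.05 (median 0.12). Of 15 proteasome genes, 3 rose, 0 fell (0 at an unadjusted p under 0.05) and 12 did not pass the test (median 0.25), and 1 of those rises, Psmc6, had kept probe sets from -0.45 to 0.33. Psmc6 lost the call when any 1 of mice 28, 30, 43, 46 and 48 was left out (adjusted p up to 0.064). The other rises, Psmd8 and Psma7, lost the call in 4 and 9 of the omissions of 1 mouse (adjusted p up to 0.055 and 0.087).

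Clock genes changed in both directions. Of 20 tested members, 5 rose, 8 fell and 7 did not pass the test (median -0.24). Hlf, a transcription factor of the clock's output, ranged over 6.10 to 8.80 with a median of 7.10 at 400 mg/kg and 8.34 to 9.80 with a median of 9.03 at 200 mg/kg (log2 fold change -1.91 ± 0.40 (SE), adjusted p = 0.0092). Nr1d1, the repressor Rev-erb alpha, fell by 1.47 and Ciart, a clock repressor, by 1.35 (adjusted p = 0.032 and 0.036). The difference in Nr1d1 was 0.54, -1.82 and -2.15 within sets 1, 2 and 3, so set 1 ran the other way. Nr1d1 lost the call when any 1 mouse other than 27, 43, 44 and 45 was left out (adjusted p up to 0.079), and Ciart lost the call when any 1 mouse other than 27 and 45 was left out (adjusted p up to 0.085). The hour at which each mouse was killed is not given in the sources used here. Among 11 vasoactive genes, Agt, the angiotensin precursor, rose 5.96-fold (log2 fold change 2.58 ± 0.44 (SE), adjusted p = 0.0046) with a mean under the table median at 200 mg/kg. Ptgs2, cyclooxygenase 2, rose by 1.03 (adjusted p = 0.018), and Cyp2c23, an epoxygenase of arachidonic acid, fell by 1.96 (adjusted p = 0.014). Ptgs2 was lower at iv 200 mg/kg than in iv saline (log2 fold change -1.19, adjusted p = 0.0029), so its rise does not show a level above saline.

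Several of the largest changes belonged to no list. Hk2, the inducible hexokinase of glycolysis, had levels of 6.53, 4.66, 5.68, 6.08, 7.57 and 7.37 at 400 mg/kg, against 3.94, 3.53, 3.56, 3.10, 3.39 and 3.05 at 200 mg/kg, without overlap (log2 fold change 2.89 ± 0.41 (SE), adjusted p = 0.0027). The 200 mg/kg mice lay around the table median of 3.47, so the size of the Hk2 rise is approximate. Pdk4, a pyruvate dehydrogenase kinase, rose 6.76-fold (log2 fold change 2.76 ± 0.57 (SE), adjusted p = 0.0091). Its mean in iv saline, 7.91 ± 0.17 (SD, n = 6), however lay between that at 400 mg/kg, 9.54 ± 1.24, and that at 200 mg/kg, 6.78 ± 1.01. Inhbb, a subunit of activin B, rose by 3.04 without overlap (adjusted p = 0.0016). Apoc2, an apolipoprotein, and Fcgr4, another Fc receptor, rose by 2.69 and 2.42 (adjusted p = 0.017 and 0.037) with SDs of 1.80 and 1.98 at 400 mg/kg and of 0.30 and 0.36 at 200 mg/kg. Fcgr4 lost the call when any 1 mouse other than 25, 44, 45 and 46 was left out (adjusted p up to 0.082).

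Dnase1, a secreted nuclease that kidney makes in quantity, fell 9.86-fold (log2 fold change -3.30 ± 0.75 (SE), adjusted p = 0.013), with levels of 10.85, 12.15, 13.75, 11.22, 9.14 and 8.04 at 400 mg/kg, against 13.59, 14.71, 14.26, 14.64, 13.77 and 13.98 at 200 mg/kg. Mouse 45 lay within the range of the lower dose and mice 47 and 48 lay lowest. Clec2h, a C-type lectin, fell without overlap (log2 fold change -2.91 ± 0.43 (SE), adjusted p = 0.0031), as did Gys2, the liver form of glycogen synthase (log2 fold change -2.49 ± 0.37 (SE), adjusted p = 0.0031), and Igfbp1, an insulin-like growth factor binding protein (log2 fold change -2.34 ± 0.39 (SE), adjusted p = 0.0044). Gnmt, a glycine methyltransferase, fell by 2.27 and Susd2, a sushi domain protein, by 2.26 (adjusted p = 0.0068 and 0.0078).

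Mice of 1 dose differed among themselves, and the same few mice stood out across lists. The mean of the tubular injury list, less its mean in iv saline, was 3.38, 2.86, 2.40, 3.42, 3.16 and 3.56 in mice 43 to 48 at 400 mg/kg, against 2.06, 0.79, 2.35, -0.10, 1.78 and 1.56 in mice 25 to 30 at 200 mg/kg. Mouse 45 was lowest at the higher dose, mice 26 and 28 were lowest at the lower dose, and mouse 27 came close to mouse 45. The mean of the proximal tubule transporters list was -1.34, -1.86, -0.47, -1.51, -1.41 and -2.42 at 400 mg/kg, against -0.44, -0.10, -0.80, -0.07, -0.56 and -0.46 at 200 mg/kg, on the same scale. Mouse 48 was lowest of all, and mouse 45 fell within the range of the 200 mg/kg mice.

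The mean of the cell cycle list ordered the mice at 200 mg/kg in another way. It was 2.06, 1.86, 1.19, 2.24, 1.90 and 2.26 above iv saline at 400 mg/kg, against 1.58, 0.11, 0.57, 0.05, 0.54 and 1.01 at 200 mg/kg, and mouse 25 rather than mouse 27 came nearest to the higher dose, above mouse 45. For the macrophage and other myeloid list the values were 3.42, 1.88, 2.12, 2.79, 3.39 and 3.47 at 400 mg/kg and 1.94, 0.35, 1.31, 0.16, 1.09 and 1.36 at 200 mg/kg, with mouse 25 just above mouse 44. Over the 1127 called genes, mouse 45 was the 400 mg/kg mouse nearest to the 200 mg/kg mean in 665 (59%) and mouse 44 in 251 (22.3%). Among the 200 mg/kg mice, mouse 27 was nearest to the 400 mg/kg mean in 501 (44.5%), mouse 25 in 405 (35.9%), mouse 26 in 36 and mouse 28 in 9. The median SD over those genes was 0.376 at 400 mg/kg and 0.343 at 200 mg/kg, against 0.271 at 50 mg/kg and 0.262 in saline.

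**Figure D3:**
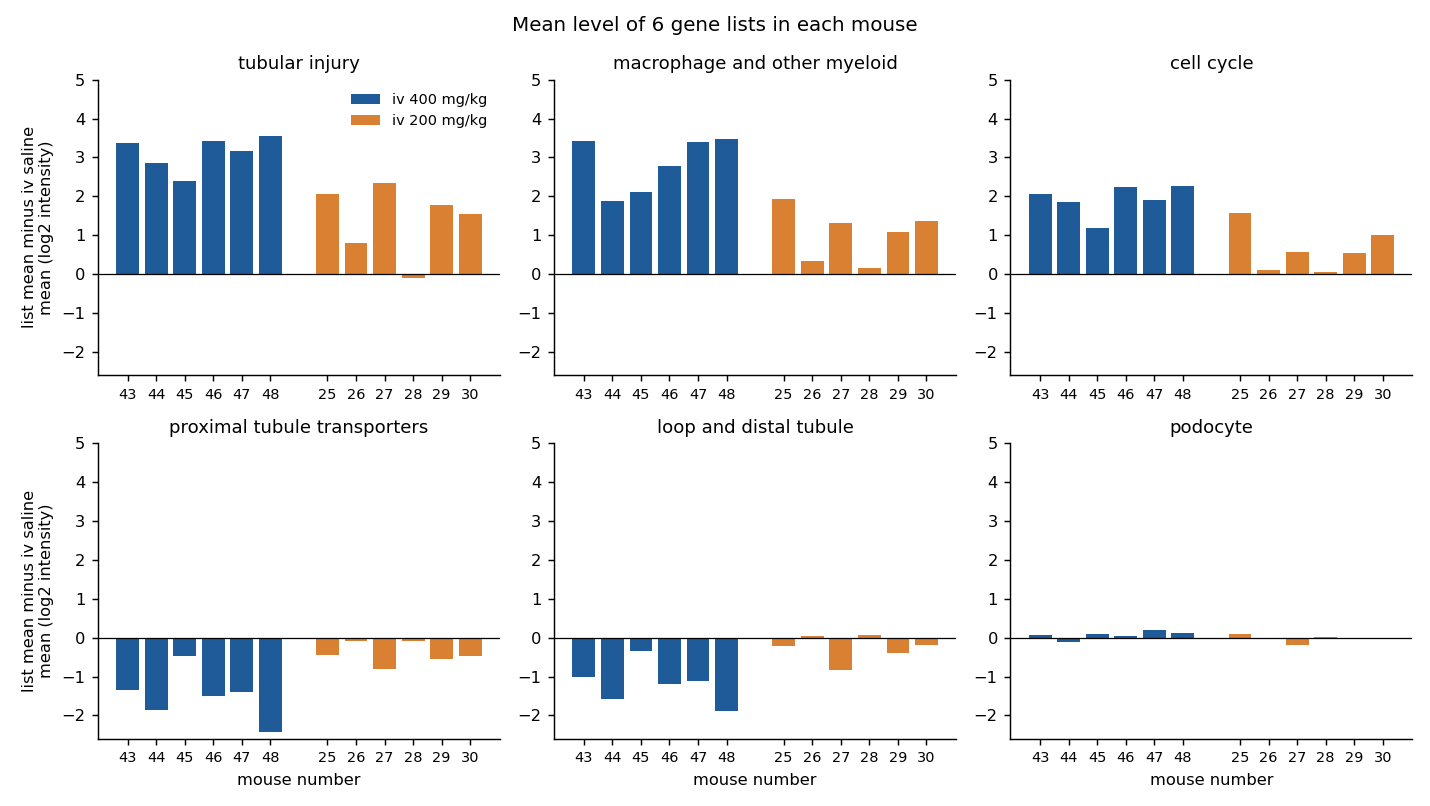
Mean log2 intensity of 6 gene lists in each mouse, less the mean of the iv saline group (y axis), for 400 mg/kg (blue) and 200 mg/kg (orange), by mouse number (x axis). The tubular injury and myeloid lists were highest at 400 mg/kg, mice 26 and 28 were the lowest at 200 mg/kg in both, and the podocyte list lay between -0.18 and 0.20 in all 12 mice.

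The same step in dose was larger by the ip route. The mean of the tubular injury list was 6.64 at ip 200 and 10.25 at ip 400 mg/kg, against 8.13 and 9.85 by iv. For the myeloid list it was 4.72 and 8.53 by ip, against 5.62 and 7.43 by iv. These levels were not compared between the routes by a test. Lists that changed little with dose also lay higher by ip. The endothelium list was at 6.28 by iv and 6.88 by ip at 200 mg/kg, and at 6.31 and 6.75 at 400 mg/kg. The podocyte list was at 6.23 by iv and 6.96 by ip at 200 mg/kg. A list that is higher by ip can thus not be told apart from this general offset between the routes. Between ip 400 and ip 200 mg/kg, groups that share no array with the iv comparison, 57.8% of probe sets and 62.5% of named genes were called, 2069 rising (36%) and 1521 falling (26.5%). Of the 641 genes that rose by iv, 619 also rose by ip (96.6% of the iv rises and 29.9% of the ip rises). Of the 486 that fell by iv, 458 also fell by ip (94.2% and 30.1%), and 1 gene was called in opposite directions. The ip groups varied less at 200 mg/kg, with a median SD over all tested probe sets of 0.187, against 0.269 at iv 200 mg/kg.

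The difference between the routes was tested as an interaction in 1 limma fit of the 4 groups. It was called for 743 named genes (12.9%), the iv step being more positive for 249 (4.33%) and more negative for 494 (8.59%). Of these genes 739 were called in the ip step, and in all 739 the iv step was the smaller in size. Serpina10 changed by 2.34 by iv and 7.13 by ip (iv minus ip -4.79 ± 1.05, SE, adjusted p = 0.008), Il1f6 by 3.40 and 7.24 (-3.84 ± 0.91, adjusted p = 0.011), and Slc34a2 by 2.88 and 6.55 (-3.67 ± 0.79, adjusted p = 0.0075). Ccr2, the receptor that brings monocytes into tissue, changed by 1.59 by iv, which did not pass (adjusted p = 0.056), and by 5.21 by ip (-3.62 ± 0.59, adjusted p = 0.0021). Ccr2 passed when any 1 of mice 25, 27 and 45 was left out (adjusted p down to 0.015) in the iv step. Ms4a6b, a membrane protein of leukocytes, changed by 2.56 and 6.26 (-3.69 ± 0.62, adjusted p = 0.0021).

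Among the falls, Slc22a8 changed by -2.34 by iv and -4.95 by ip (iv minus ip 2.62 ± 0.81, SE, adjusted p = 0.038), Slc22a6 by -0.85 and -3.19 (2.34 ± 0.55, adjusted p = 0.011), and Slc22a12 by -0.62 and -2.80 (2.18 ± 0.31, adjusted p = 0.0011). The route difference was also called for Pvalb (2.63 ± 0.86, adjusted p = 0.048). Hpd, at -5.48 by iv and -7.86 by ip, did not pass it (2.38 ± 1.12, SE, adjusted p = 0.16), nor did Ccl20, at 3.26 and 3.89 (adjusted p = 0.52). The myeloid list had a median of 1.90 by iv and 4.26 by ip, with the route difference called in 18 of 26 members. The interferon list had 0.92 and 1.80, with the route difference called in 4 of 31.

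**Figure D4:**
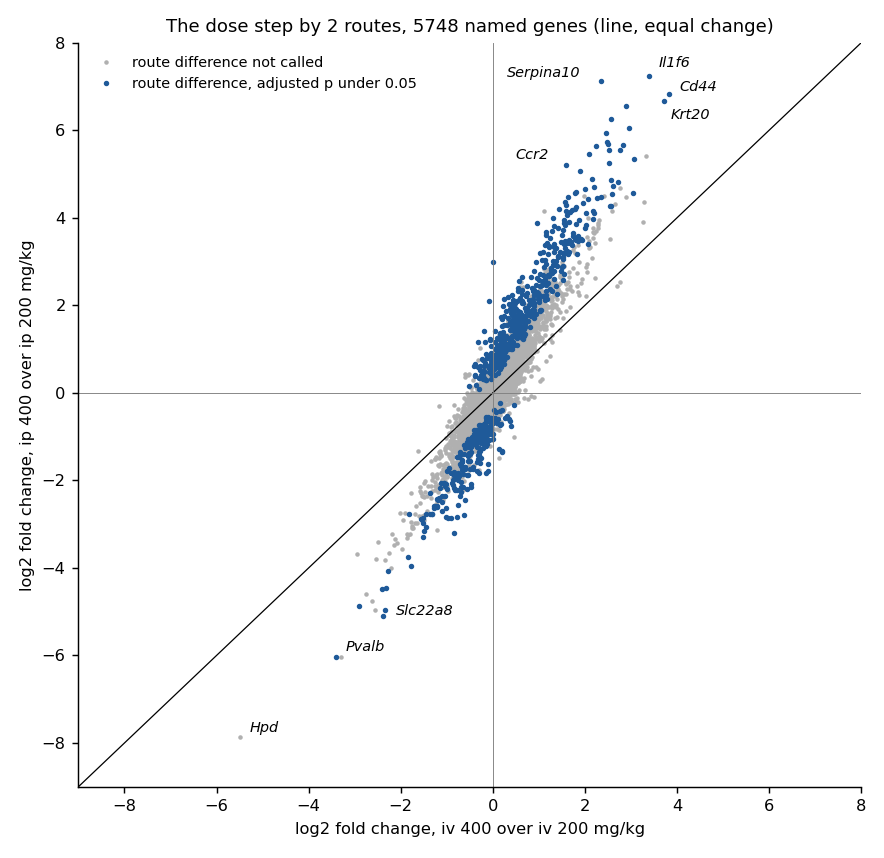
Log2 fold change of 400 over 200 mg/kg by iv (x axis) and by ip (y axis) for 5748 named genes; blue points passed an adjusted p of 0.05 for the route difference, and the diagonal marks equal change. Serpina10, Il1f6 and Ccr2 lie far above the diagonal and Pvalb and Slc22a8 far below, and the iv step was the smaller in size for the 739 blue points that were called by ip.

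At the lower dose few genes were called against saline, which does not show that few had changed. Of the 24930 probe sets, 3846 had an unadjusted limma p under 0.05. The mean of the tubular injury list was 8.13 ± 0.91 at iv 200 mg/kg and 6.72 ± 0.24 in iv saline (SD, n = 6 each). Between iv 200 mg/kg and iv saline, a comparison that shares its 200 mg/kg arrays with the comparison of doses, 56 named genes were called (0.974%), 28 rising and 28 falling (0.487% each), and 0.895% of probe sets. Serpina10 changed by 5.46 in that step (adjusted p = 0.023) and by 2.34 in the step to 400 mg/kg. Clu changed by 3.01 (adjusted p = 0.027) and then by 1.14, Havcr1 by 2.48 (adjusted p = 0.057) and then by 1.07, and Col1a1 by 3.18 (adjusted p = 0.03) and then by 2.09. Cd44 changed by 1.37 (adjusted p = 0.13) and then by 3.82, and Hpd by -1.15 (adjusted p = 0.18) and then by -5.48. Whether the 2 steps of a gene differ was not tested.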

How the data were processed

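Biotin-labelled cRNA from 1 piece of kidney per mouse went on 1 Affymetrix array, per the labels. The authors deposited a linear intensity for each of 45101 probe sets. The submitters' processing notes name GCRMA. Its version is not given in the sources used here, nor whether all arrays were normalized in 1 run. The log2 of each deposited intensity was taken with no offset, with 0 values missing, and 0 pairs of arrays were identical. Labels give every mouse its own number and name no batch, so mice were unpaired.

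Probe sets with log2 intensity above the table median (3.47) in at least 6 of 48 arrays were tested (24930). Values near that median are not told from background intensity. In the platform annotation 34958 probe sets have 1 symbol, 932 have several and 9211 have none. Names were given to 10198 probe sets in the 3 stretches. Of these, 10183 had an Entrez identifier in RefSeq (GRCm38.p6). Each of 5748 genes was represented by its brightest kept probe set over all arrays, and 0 of the 1261 genes with several kept probe sets had calls in both directions.

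The 12 arrays were fitted with limma 3.58.1 in R 4.3.3 (lmFit, eBayes with trend, two-sided), with Benjamini-Hochberg adjustment over all tested probe sets and a threshold of 0.05. The ip step and the step from saline were fitted likewise on their own 2 groups, and the route difference on 4 groups. Single genes were also tested by an exact permutation of the 12 mice (scipy 1.17.1). In simulated data of this comparison with 24930 probe sets, 68% of 100 changes of 1 log2 unit and 94% of 100 changes of 2 log2 units were recovered, and 8 of 170 calls were false. The simulated noise was normal and independent between probe sets, without array sets or mice that shift many genes together. Far fewer probe sets were changed than the 15.7% called in the real data. These rates therefore check the procedure and do not give the error of the real counts.

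The groups, gene lists and rules were chosen with earlier results of these data known. Genes were named by a rule: the 15 largest called rises and 15 largest called falls whose 400 mg/kg mice all lay on 1 side of the 200 mg/kg mean, an inspection list of 30 injury, transport and control genes, the 3 largest calls of each gene list (with the 2 highest uncalled members where it had fewer), the 6 largest route differences in each direction, and the 6 called genes with the largest SD at 400 mg/kg. Alternatives changed the filter, normalization, samples in the fit, array weights, trend, offset, probe set rule, named rows, adjustment and mice. Leaving out mice 27 and 44, and array set as a block, were added after seeing the data.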

Additional observations from a re-analysis of the deposited data

Results flagged for a closer look

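Single mice stood far from the other 5 of their group by Dixon's test in 12 of 262 group tests of the 131 named genes, and chance alone flags about 1 in 20. At 400 mg/kg, mouse 45 gave 4 of the 12 (log2 intensity). Its Slc34a2 was 6.96 (the others 9.02 to 10.22), its Cd14 9.74 (11.13 to 11.82), its Clec2h 6.32 (3.28 to 3.99) and its Dpys 4.18 (2.64 to 3.08). Each of these lay toward the 200 mg/kg mice. Mouse 44 at 400 mg/kg was low for H2-Ab1 at 9.15 (10.53 to 11.31) and for Maff at 3.97 (5.32 to 5.75).

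At 200 mg/kg, mouse 27 was high for Pdk4 at 8.78 (6.00 to 6.65) and low for Nr1d1 at 2.79 (4.84 to 5.51). Mouse 25 was high for the proteoglycan gene Vcan at 3.62 (2.49 to 2.90) and for Fcgr4 at 3.44 (2.50 to 2.77), where levels are near background. Mouse 26 was low for St6gal1 at 5.92 (6.53 to 6.84) and high for Hspa9, a mitochondrial chaperone, at 12.13 (11.00 to 11.37).

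The dose step differed between routes by the interaction test of limma for genes on both sides, given as the iv log2 fold change minus the ip one. Among genes that were higher at 400 mg/kg it was -4.79 for Serpina10, -3.84 for Il1f6, -3.69 for Ms4a6b, -3.67 for Slc34a2, -3.62 for Ccr2 and -3.49 for Lrg1. Among genes that were lower at 400 mg/kg it was 2.72 for Aspdh, 2.63 for Pvalb, 2.62 for Slc22a8, 2.34 for Slc22a6, 2.18 for Slc22a12 and 2.17 for the monocarboxylate transporter Slc16a4. In all 12 the iv step was the smaller in size.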

How the results depend on the processing

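Counts of calls depended on the setting and on single mice. For probe sets higher and lower at iv 400 mg/kg (2045 and 1866), the counts were 1266 and 1188 with no filter, 3172 and 2856 with all 8 groups in the fit, 3192 and 3285 with array weights, 3297 and 3321 with array set as a block, and 954 and 529 when also over 2-fold. With a mean level above 6, 1279 were higher. For named genes (641 and 486) they were 401 and 317 with no filter, 986 and 812 with array weights, 1012 and 828 with the block, and 310 and 148 over 2-fold, and 977 rose with all 8 groups in the fit. Leaving out each mouse gave 1110 to 2522 probe sets higher and 988 to 2438 lower, and 362 to 783 named genes higher and 262 to 637 lower. The higher named genes were over 1.5 times fewer without mouse 26 (422), 28 (362), 43 (407) or 48 (400), and the lower ones without mouse 26 (306), 28 (262), 30 (318) or 48 (321). By ip, a mean level above 6 gave 4560 higher and 4245 lower, and no filter gave 19635 lower. For the route difference, no filter gave 584 and 1231, array weights 2085 and 3703, all 8 groups 1484 higher, and a mean level above 6 gave 881 lower. The cause of these changes was not tested. Filters change how many probe sets are tested. Each omission leaves 1 mouse fewer, and the counts moved both ways with the mouse left out. Probe sets higher and lower were 2522 and 2285 without mouse 45, and 1110 and 988 without mouse 28. The block lowers residual spread by construction, since its sets came from residuals of these same arrays.

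Of 102 named genes called, 27 lost the call without at least 1 mouse, and of 29 not called, 8 gained one (Ccr2, Mt1, Csf3r, Slc4a1, Ebp, Ccl5, Xbp1 and Ighm). Signs turned for 6 genes. Of these, 5 were not called: Aqp2 (-0.40 to 0.0099 with single mice left out), Nphs1 (-0.0018 with array weights), Emcn (-0.0546 with the block, -0.0459 to 0.13 with mice left out), Plvap (-0.0139 with the block, -0.0131 to 0.15) and Lamp2 (0.0390 with quantile normalization, 0.0616 with the block, -0.11 to 0.0451). The called gene Psmc6 was -0.11 as the mean of its probe sets. Of the values for single genes and lists, 8 lost the call without mice 27 and 44 and 23 lost it with no filter, while 9 gained one with all 8 groups in the fit. With array set as a block 5 gained one (Mt1, Csf3r, Hspa9, Ebp and Rpl35) and 0 lost it. Those sets were drawn from residuals of these same arrays, so added calls follow from how the sets were made. No paired analysis was possible because no mouse number is shared between the groups. Signal limits small changes of dim genes.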
